A study of Mus musculus with 10 samples.

Results

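Serotonin receptor genes were followed across the nucleus types of the adult mouse hippocampus: Htr1a, Htr1f, Htr5b, Htr2a, Htr2c, Htr3a, Htr4 and Htr7. These 8 genes were taken by symbol from the 24837 genes of the deposited count matrix, which lists 14 serotonin receptor genes in all. The matrix comes from single-nucleus RNA sequencing (snRNA-seq), in which the RNA of each nucleus is tagged with a droplet barcode and every captured molecule is counted once as a unique molecular identifier (UMI). All 10 samples were hippocampi of wild-type (WT) C57B/6J mice aged 4 to 7 months that received no stimulation, so the study has 1 group and no treated arm. The titles of 4 samples name them as controls of an RNASET2 experiment. Nuclei were sorted for the DNA dye 7AAD and processed on the 10x 3' v3.1 chemistry. Whether a sample pooled several mice is not given in the sources used here.

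Serotonin reaches the hippocampus through axons of the raphe nuclei, and its effect on a target cell is set by which receptors that cell makes. Htr1a and Htr1f encode receptors that act through inhibitory (Gi/o) G proteins, and Htr5b belongs to the 5-HT5 family, also described as Gi/o-coupled. Htr2a and Htr2c encode Gq-coupled receptors that act on phospholipase C. Htr4 and Htr7 encode Gs-coupled receptors that raise cyclic AMP. Htr3a stands apart from the rest, because it encodes a subunit of a cation channel that serotonin opens directly.

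The matrix held 15661 barcodes and 101300889 UMIs, and 15342 nuclei were used after filtering. Barcodes with the same suffix form a barcode set, of which there are 7, and the files do not tie these sets to the 10 samples. All nuclei were therefore treated as 1 sample: no p-value is given, and the 95% intervals below cover counting error only, not the spread between mice. Levels are given as CPM: the UMIs of a gene are summed over the nuclei of a class and scaled to a fixed total of all their UMIs, so a level is a share of the RNA counted. Levels of different genes are not compared. Sets differed in depth, with medians between 1086 and 8040 UMIs per nucleus, and 21 barcode sequences occurred in at least 2 sets. Clusters were named only by resemblance to marker lists, so each name stands for nuclei like that type. The list genes, receptors included, were left out of the features used for clustering. In all, 10309 nuclei were neurons (67.2%), of which 8570 were excitatory and 1739 inhibitory, 3418 were non-neuronal (22.3%), 111 were Cajal-Retzius neurons, counted with neither side, and 1504 stayed unnamed (9.80%). Dentate granule, CA1, CA3 and subicular classes were present. The named classes also included nuclei like deep-layer cortical neurons and inhibitory neurons marked by Zic1 or Meis2, neither of which is a principal cell of the hippocampus. Excitatory clusters that met no subtype are called by leading genes, such as Col6a1/Vgll3. Set 7 held 40 Cajal-Retzius nuclei but almost no excitatory or inhibitory neurons.

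**Figure D1:**
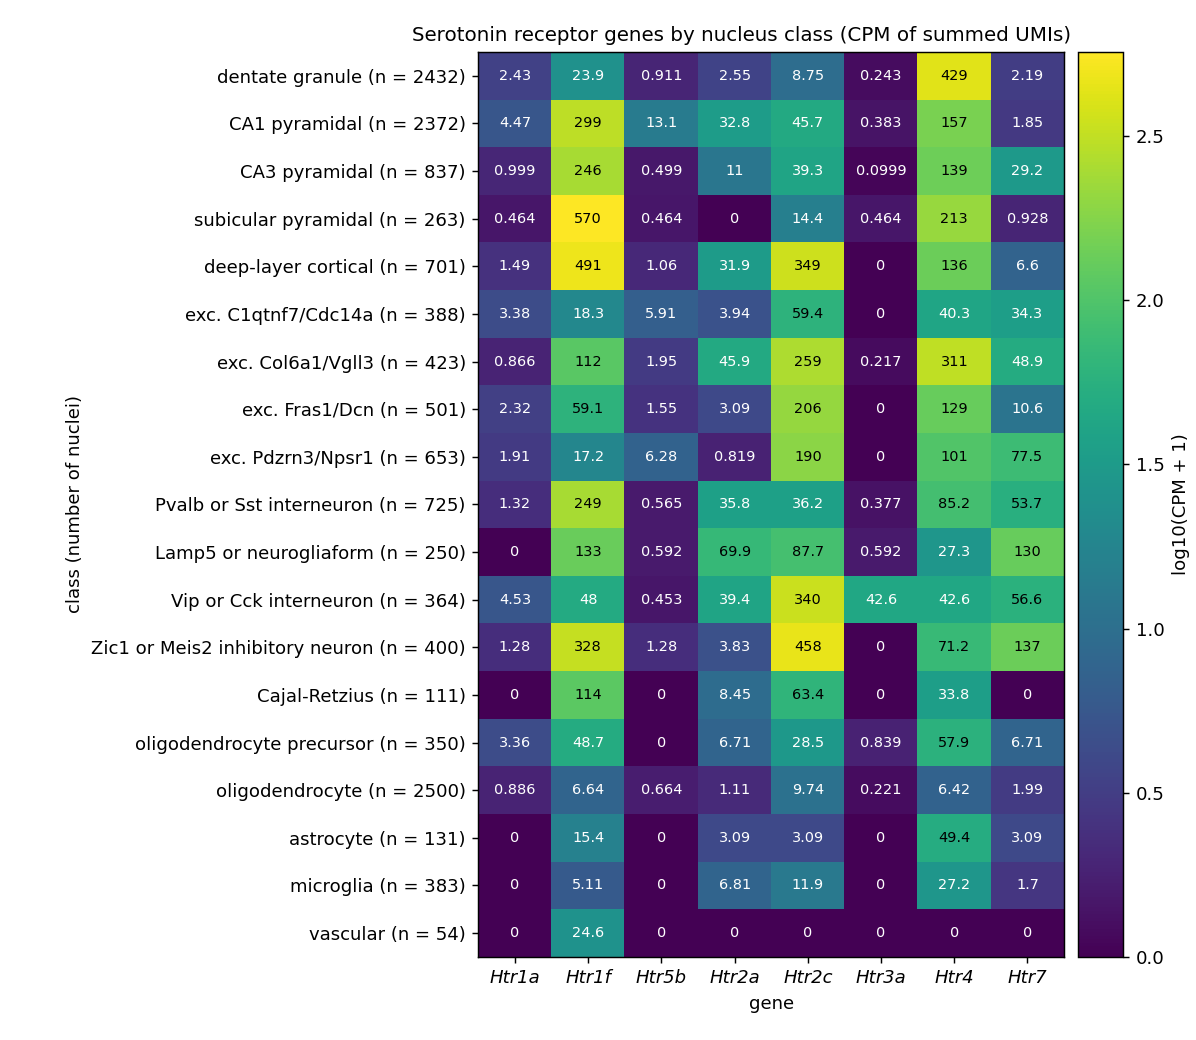
Heat map of the level of each receptor gene (columns) in each of the 19 named classes of at least 50 nuclei (rows, with the number of nuclei). Each cell prints the CPM of summed UMIs and its colour is log10(CPM + 1). Htr4 peaks in dentate granule neurons at 429 CPM, Htr1f in subicular neurons at 569.8 CPM, and Htr3a is above 1 CPM in the Vip or Cck class only.

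Receptor mRNA was found mainly in neurons. Of the 8 genes, 7 had a neuronal level of 2 or more times the non-neuronal one and 0 differed that much the other way. Among all 13593 genes with enough counts, 18.5% were higher in neurons by 2-fold or more and 21.6% lower. The median log2 ratio was 3.13 over the 8 receptor genes and -0.23 over all genes. Htr1f reached 189 CPM in neurons, against 14.7 CPM in non-neuronal nuclei, a ratio of 12.9 (10.6 to 15.8). Htr4 reached 196 CPM in neurons, against 19.3 CPM in non-neuronal nuclei, a ratio of 10.2 (8.55 to 12.2). Htr7 gave a similar ratio at lower levels, 28.4 CPM in neurons and 2.82 CPM in non-neuronal nuclei. The Gq-coupled pair was also mainly neuronal: Htr2c was at 114 CPM in neurons and 12.8 CPM in non-neuronal nuclei, and Htr2a at 18.6 CPM in neurons and 2.67 CPM in non-neuronal nuclei. These 5 genes were higher on the neuronal side within each of the 5 barcode sets that held both sides. The remaining genes rest on few non-neuronal UMIs. Htr5b was at 3.82 CPM in neurons and 0.445 CPM in non-neuronal nuclei, from 3 UMIs, with a ratio of 8.58 (2.91 to 41.8). Htr3a was at 1.39 CPM in neurons and 0.297 CPM in non-neuronal nuclei, from 2 UMIs, with a ratio of 4.69 (1.27 to 39.2). As the median over barcode sets, the log2 ratio was 0.82 for Htr5b and 0.38 for Htr3a, both short of 2-fold. With so few non-neuronal UMIs, some sets had 0, which was replaced by 3 UMIs, so their ratios are lower bounds. These medians therefore cannot show that either difference was under 2-fold. Htr1a fell just outside, with a ratio of 1.97 (0.979 to 4.63).

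Free RNA in droplets can give UMIs in nuclei that do not make a gene. Oligodendrocytes were used as the background, on the assumption, not tested here, that they lack these receptors. Htr4 was seen in 1.04% of oligodendrocytes and Htr1f in 1.16%, at a median of 1667 UMIs per nucleus. In neurons, at a median of 5749 UMIs, Htr4 was seen in 47.8% and Htr1f in 40.02% of nuclei. To remove the difference in depth, nuclei of at least 1000 UMIs were thinned at random to 1000 UMIs. Shallower nuclei were left out of the thinned shares here and below, 539 of 2500 oligodendrocytes and 60 of 10309 neurons. Thinned oligodendrocytes gave 0.510% for Htr4 and 0.561% for Htr1f, and thinned neurons 15.5% and 14.6%. By level, oligodendrocytes held 0.0328 of the neuronal CPM for Htr4, 0.0352 for Htr1f and 0.0858 for Htr2c. For Slc17a7, the vesicular glutamate transporter that marks excitatory neurons, oligodendrocytes held 0.112 of the excitatory level, and for Gad2, a GABA-synthesising enzyme, 0.0296 of the inhibitory level. Each marker gene was set against its own side and the receptor genes against all neurons, so these values cannot be ranked together. Htr2a was at 0.0596 and Htr7 at 0.0703 of the neuronal level. Htr1a at 0.379, Htr5b at 0.174 and Htr3a at 0.159 rested on 4, 3 and 1 oligodendrocyte UMIs. Other glia had higher Htr4 levels, from few nuclei. The 69 Htr4 UMIs of oligodendrocyte precursors (57.9 CPM) came from 25 of 350 nuclei (7.14%), above the 1.04% of oligodendrocytes. After thinning, the precursor share was 1.34% (0.367 to 3.40). Its interval overlapped that of oligodendrocytes, at 0.510% (0.245 to 0.936). Astrocytes had 49.4 CPM, from 16 UMIs in 4 of 131 nuclei, and microglia 27.2 CPM, from 16 UMIs in 3 of 383 nuclei. These levels were as high as those of some interneuron classes below. Oligodendrocyte precursors also held 58 of the 99 non-neuronal Htr1f UMIs, at 48.7 CPM, above the 23.9 CPM of dentate granule neurons. By share of nuclei the order was reversed, with 7.14% of precursors and 13.3% of dentate granule neurons. After thinning the shares were 1.68% (0.547 to 3.87) and 2.16% (1.62 to 2.82), with overlapping intervals. The Htr2c level of the precursors was 28.5 CPM, from 34 UMIs. The part of free RNA or of droplets with several nuclei in these glial values was not tested.

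Among neurons, the receptor genes divided between the excitatory and the inhibitory side. At least 2-fold higher in excitatory neurons were 2 of 8 genes, against 7.06% of 13153 genes, and at least 2-fold lower were 3 of 8, against 7.9%. The median log2 ratio was -0.63 over the receptor genes and -0.10 over all genes. Htr4 averaged 222 CPM in excitatory neurons and 66.4 CPM in inhibitory neurons, a ratio of 3.34 (3.12 to 3.58), and Htr5b 4.42 CPM in excitatory and 0.762 CPM in inhibitory neurons, a ratio of 5.81 (3.11 to 12.2). Both were higher in excitatory neurons in each of the 6 barcode sets that could be compared. On the inhibitory side stood Htr3a, at 0.197 CPM in excitatory and 7.39 CPM in inhibitory neurons, a ratio of 0.0266 (0.0137 to 0.0477). Htr7 was at 16.3 CPM in excitatory and 88.9 CPM in inhibitory neurons, a ratio of 0.184 (0.169 to 0.200), lower in excitatory neurons in 6 of 6 sets. Htr2c, at 92.4 CPM in excitatory and 219.9 CPM in inhibitory neurons, had a ratio of 0.420 (0.402 to 0.439). Htr2c was lower in excitatory neurons in 6 of 6 sets, but the 2-fold size rested on set 1: without that set the log2 ratio of Htr2c was -0.84, against -1.25 with it. Of the 2885 inhibitory UMIs of Htr2c, 1794 were in the Zic1 or Meis2 class, at 458 CPM. Vip or Cck interneurons had 340 CPM, Lamp5 interneurons 87.7 CPM and Pvalb or Sst interneurons 36.2 CPM. Pvalb or Sst interneurons were thus below the 92.4 CPM of excitatory neurons, and Lamp5 interneurons did not exceed it. The ratio without the Zic1 or Meis2 class was not tested. Htr2a lay just outside the 2-fold line, with 16.1 CPM in excitatory and 31.2 CPM in inhibitory neurons and a log2 ratio of -0.96. Htr1f (182 CPM in excitatory and 224 CPM in inhibitory neurons) and Htr1a (2.47 CPM in excitatory and 1.68 CPM in inhibitory neurons) stayed within 2-fold.

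**Figure D2:**
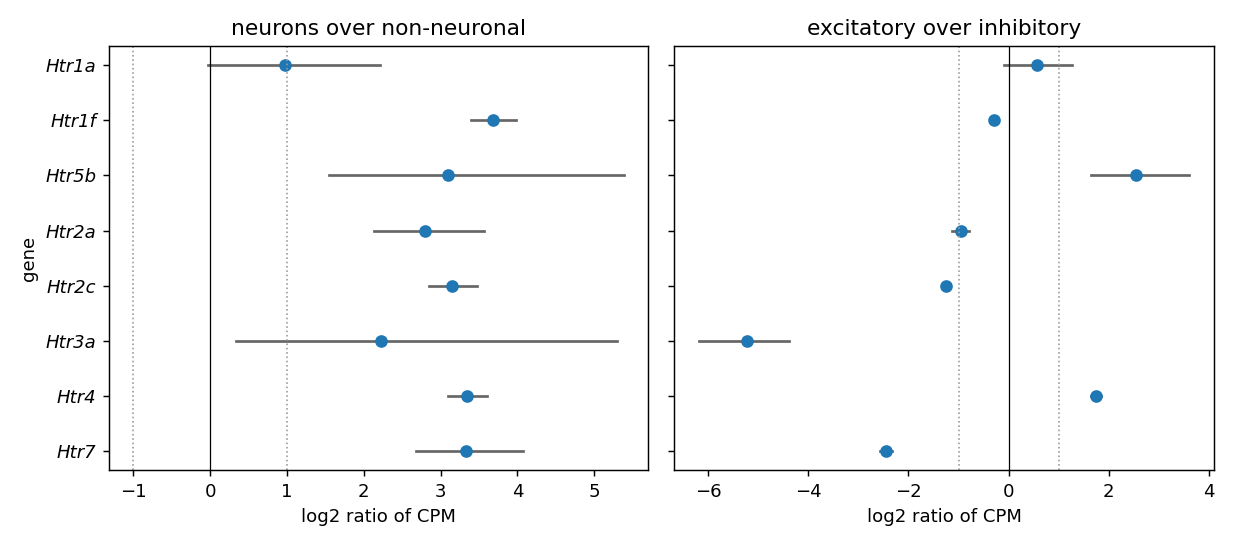
Log2 ratio of the CPM of each receptor gene, neurons over non-neuronal nuclei in one panel and excitatory over inhibitory neurons in the other, with exact 95% intervals for counting error and dotted lines at a 2-fold difference. Htr3a lies farthest to the inhibitory side at -5.23, and Htr4 and Htr5b lie past the line on the excitatory side at 1.74 and 2.54.

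Of the Gi/o-coupled genes, Htr1f was high in several excitatory and inhibitory classes. The gene spans 181 kb of chromosome 16 (GRCm38, bases 64924729 to 65105854, minus strand) with 3 exons. In subicular neurons, the main output cells of the hippocampal formation, Htr1f was at 569.8 CPM (538 to 603) and was seen in 76.0% of 263 nuclei. Deep-layer cortical neurons followed with 491 CPM, Zic1 or Meis2 inhibitory neurons with 328 CPM, and CA1 neurons with 299 CPM. Each of these steps was larger than counting error, with ratios between neighbours of 1.16, 1.498 and 1.10. The next pair, Pvalb or Sst interneurons at 249 CPM and CA3 neurons at 246 CPM, could not be separated. At the low end of the neurons, dentate granule neurons had 23.9 CPM and the excitatory Pdzrn3/Npsr1 class 17.2 CPM. Within barcode sets, CA1 neurons ranged over 253 to 345 CPM in 6 sets and dentate granule neurons over 8.06 to 51.0 CPM, and these ranges did not overlap. Subicular neurons reached 50 nuclei in sets 5 and 6 only. They had 521 CPM in set 5, with overlapping intervals beside 555 CPM in deep-layer neurons, and 857 CPM in set 6, against 394 CPM in deep-layer neurons. Of the classes that could be ranked elsewhere, deep-layer neurons were highest in sets 2 to 4 and CA1 neurons in set 1, where deep-layer nuclei too were under 50. At the finer clustering the highest class was the deep-layer one. There the subicular name also covered the Plch1 cluster, described below, while the 263 nuclei themselves stayed 1 cluster at 569.8 CPM.

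Htr1a, an autoreceptor on raphe neurons and a postsynaptic receptor in the hippocampus, was sparse in nuclei. It occupies 1 exon on chromosome 13 (bases 105443639 to 105448122, plus strand) and gave 216 UMIs in 206 nuclei (1.34%). The highest values were 4.53 CPM in Vip or Cck interneurons, from 10 UMIs, and 4.47 CPM in CA1 neurons, from 70 UMIs, with 2.43 CPM in dentate granule neurons, from 40 UMIs. No 2 neighbours in the order of classes could be told apart. Some classes farther apart had intervals that did not overlap, such as CA1 (3.49 to 5.65) and CA3, at 0.999 CPM (0.479 to 1.84). The 0 UMIs in Lamp5 interneurons allow a level of up to 1.78 CPM. In set 1, CA1 neurons reached 9.92 CPM.

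Htr5b had its highest level in CA1. The gene lies on chromosome 1 (bases 121509842 to 121528465, minus strand), where it overlaps Gm8217 on the opposite strand. CA1 neurons held 205 of its 318 UMIs, at 13.1 CPM (11.4 to 15.02) and in 7.34% of 2372 nuclei. The excitatory classes Pdzrn3/Npsr1 at 6.28 CPM and C1qtnf7/Cdc14a at 5.91 CPM came next, and the step down from CA1 was a ratio of 2.09 (1.35 to 3.37). CA3 neurons had 0.499 CPM and dentate granule neurons 0.911 CPM. CA1 was the highest class in 6 of 6 barcode sets, with 8.82 to 19.6 CPM.

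The Gq-coupled receptors had different patterns. Htr2a, the receptor of the classical psychedelics, lies on chromosome 14 (bases 74640840 to 74709494, plus strand). Over all sets together, it was highest in Lamp5 or neurogliaform interneurons at 69.9 CPM (57.9 to 83.7), in 31.2% of 250 nuclei. Excitatory Col6a1/Vgll3 neurons followed with 45.9 CPM, a step of 1.52 (1.21 to 1.92). Below them, Vip or Cck interneurons at 39.4 CPM, Pvalb or Sst interneurons at 35.8 CPM, CA1 neurons at 32.8 CPM and deep-layer neurons at 31.9 CPM formed a run in which no neighbours were separable. CA3 neurons had 10.98 CPM and dentate granule neurons 2.55 CPM, and 0 UMIs in subicular neurons allow up to 1.39 CPM. Over the 6 barcode sets, Htr2a ranged over 18.3 to 51.0 CPM in CA1 and 7.81 to 18.2 CPM in CA3, and these ranges did not overlap. The highest class of Htr2a was not the same from set to set. Lamp5 interneurons reached 50 nuclei in sets 2 and 6 only. They were highest in set 2, at 72.9 CPM, while in set 6 Pvalb or Sst interneurons were, at 49.7 CPM. The highest class was CA1 in set 1, Vip or Cck in set 3, deep-layer in set 4 and Col6a1/Vgll3 in set 5. As mean UMIs per nucleus, with no scaling to depth, the highest class of Htr2a was Col6a1/Vgll3.

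Htr2c, whose transcript is known for RNA editing, gave up to 112 UMIs in 1 nucleus. It spans 235 kb of chromosome X (bases 146962513 to 147197277, plus strand), and 8 small RNA genes lie inside it on the same strand, among them Snora35 and Mir448. Among named classes it was highest in Zic1 or Meis2 inhibitory neurons, at 458 CPM (437 to 479) and in 54.0% of 400 nuclei. Deep-layer neurons at 349 CPM and Vip or Cck interneurons at 340.3 CPM came next and could not be separated from each other. Further steps led to Col6a1/Vgll3 neurons with 259 CPM, Fras1/Dcn neurons with 206 CPM and Pdzrn3/Npsr1 neurons with 190.2 CPM. The classes named as principal cells of the hippocampus were low. They had 45.7 CPM in CA1, 39.3 CPM in CA3, 14.4 CPM in subicular and 8.75 CPM in dentate granule neurons. Barcode sets kept these ranges apart: deep-layer neurons had 270.3 to 379 CPM in 5 sets, against 34.1 to 58.3 CPM for CA1 in 6 sets. The CA3 value depends on where clusters were divided. At the finer clustering 176 of the 423 Col6a1/Vgll3 nuclei joined CA3, and CA3 as a whole then had 115 CPM.

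Htr3a was nearly confined, among the named classes, to Vip or Cck interneurons. The gene, on chromosome 9 (bases 48899213 to 48911099, minus strand, overlapping Gm32335 on the opposite strand), had 94 of its 119 UMIs there. That is 42.6 CPM (34.4 to 52.1), in 17.9% of 364 nuclei, and every other named class had at most 0.839 CPM. Against the next class, from 1 UMI, the ratio was 50.8 with an interval of 8.89 to 2026. In the 4 barcode sets with at least 50 nuclei of the class, the level was 28.6 to 57.7 CPM. Within the class the intervals overlapped between the textbook subdivisions. Nuclei with a Vip UMI had 36.3 CPM (21.2 to 58.1) and those without 44.3 CPM (34.9 to 55.3), while nuclei with a Cck UMI had 45.4 CPM (31.0 to 64.0) and those without 41.3 CPM (31.7 to 52.9). Nuclei with a Lamp5 UMI had 15.4 CPM (4.21 to 39.5) from 4 UMIs, against 46.2 CPM (37.2 to 56.8) without. These intervals overlapped too, and median depths were 10380 UMIs with Lamp5 and 3754 without.

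Htr4, the first of the Gs-coupled genes, was highest in the dentate gyrus. It lies on chromosome 18, spans 172 kb and has up to 7 exons. Dentate granule neurons, which receive the cortical input to the hippocampus, had 429 CPM (420 to 439.6), and 78.4% of 2432 nuclei carried a UMI, or 30.7% after thinning. Col6a1/Vgll3 neurons followed with 311 CPM, subicular neurons with 213 CPM, CA1 with 157 CPM and CA3 with 139 CPM, and each of these neighbours was separable, by ratios of 1.38, 1.46, 1.36 and 1.13. Interneurons were lower, at 85.2 CPM in the Pvalb or Sst class, 42.6 CPM in the Vip or Cck class and 27.3 CPM in the Lamp5 class. Dentate granule neurons were the highest class in 6 of 6 barcode sets, at 312 to 495 CPM, against 117 to 193 CPM in CA1, and the ranges did not overlap. As mean UMIs per nucleus the Col6a1/Vgll3 class was above them.

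Htr7, the other Gs-coupled gene, had another order among the principal cells. It lies on chromosome 19 (bases 35958734 to 36057507, minus strand). Zic1 or Meis2 inhibitory neurons at 137 CPM (126 to 149) and Lamp5 interneurons at 130.3 CPM (114 to 149) shared the top of the order. Without set 1, the Lamp5 class was the highest. Pdzrn3/Npsr1 neurons had 77.5 CPM, Vip or Cck interneurons 56.6 CPM and Pvalb or Sst interneurons 53.7 CPM. Among the classes named as hippocampal principal cells, Htr7 was at 29.2 CPM in CA3. It was at 1.85 CPM in CA1, 2.19 CPM in dentate granule and 0.928 CPM in subicular neurons. CA3 ranged over 25.1 to 34.6 CPM in 6 sets. Of the 837 nuclei of this CA3 class, 98 were named CA2 at the finer clustering, and the Htr7 level of CA2 is given below.

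**Figure D3:**
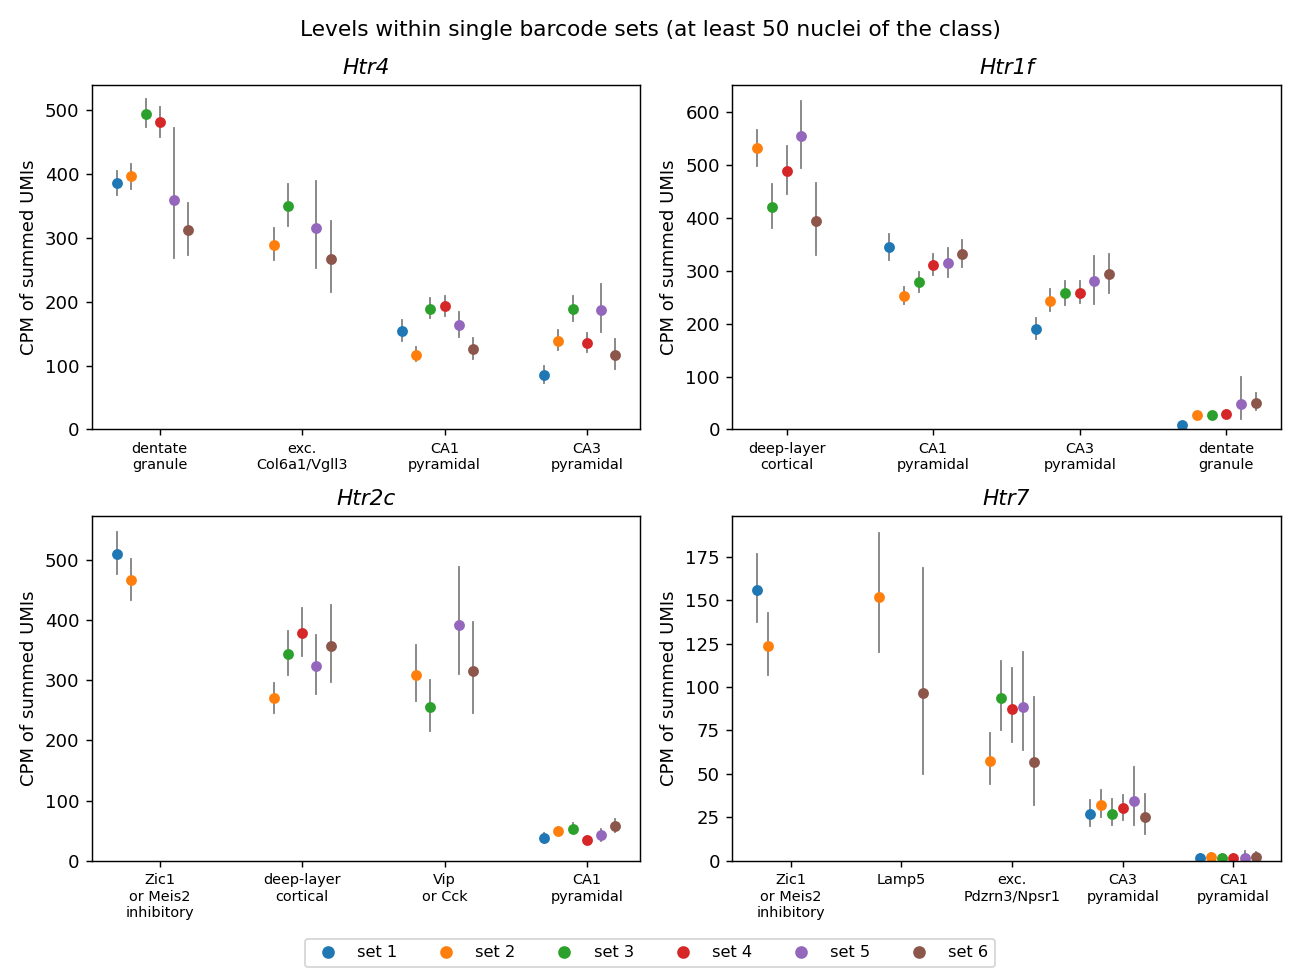
Levels of Htr4, Htr1f, Htr2c and Htr7 (CPM, vertical axes) in 4 or 5 chosen classes for each gene, with at least 50 nuclei in a barcode set, 1 point for each set and vertical bars for exact 95% counting intervals. Htr4 is highest in dentate granule neurons in all 6 sets with that class (312 to 495 CPM), while Htr1f there is 8.06 to 51.0 CPM.

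Finer clusters divided some classes by their receptor genes. The pairs below were chosen after their values were seen and are given as descriptions. Pvalb interneurons, the fast-spiking basket type, had 377 CPM of Htr1f, against 108 CPM in Sst interneurons, a ratio of 3.48 (3.04 to 3.98). By set, Pvalb interneurons had 313, 368, 511 and 378 CPM of Htr1f in sets 2, 3, 5 and 6, against 91.3, 85.1, 114 and 194 CPM in Sst interneurons, so every Pvalb value was above every Sst value. Htr2a was also higher, at 46.3 CPM in Pvalb and 25.5 CPM in Sst interneurons, while Htr7 was lower, at 44.6 CPM in Pvalb and 71.9 CPM in Sst interneurons. The deep-layer class separated into a Vwc2l and a Rai14 cluster. Htr2c had 643 CPM in the Vwc2l cluster and 129 CPM in the Rai14 cluster, a ratio of 5.004 (4.44 to 5.65), and Htr4 had 261 CPM in the Vwc2l and 41.4 CPM in the Rai14 cluster, a ratio of 6.32 (5.14 to 7.83). Both ratios were above 1 in 3 of 3 sets. Htr1f went the other way, with 401 CPM in the Vwc2l and 558 CPM in the Rai14 cluster, so the 3 genes did not share an order inside 1 class.

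Finer clusters of CA1 and subicular neurons differed in the same genes. The Fibcd1 cluster of CA1 had 106 CPM of Htr1f, against 403 CPM in the Klf10 cluster, a ratio of 0.262 (0.214 to 0.318), and was lower in sets 5 and 6, those with enough nuclei of both. A Bmpr1b cluster, 247 of whose 314 nuclei fell in CA1 at the main clustering, had 102 CPM of Htr1f, against 369 CPM in the Gm2115 cluster of CA1, and was lower in sets 2, 3 and 4. Htr2c ran opposite, at 125 CPM in the Bmpr1b and 30.8 CPM in the Gm2115 cluster, a ratio of 4.05 (3.43 to 4.79), higher in 3 of 3 sets. The Fn1 cluster held the 263 subicular nuclei of the main clustering, while the Plch1 cluster, subicular by name at the finer clustering, drew its nuclei mainly from Pdzrn3/Npsr1 (122) and C1qtnf7/Cdc14a (90), so this contrast runs between main classes. The Fn1 cluster had 569.8 CPM of Htr1f and 14.4 CPM of Htr2c, against 19.7 CPM of Htr1f and 198 CPM of Htr2c in the Plch1 cluster. CA2 neurons, a small field between CA1 and CA3, had 96.0 CPM of Htr7 in 124 nuclei, against 25.3 CPM in CA3, a ratio of 3.79 (3.03 to 4.71).

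**Figure D4:**
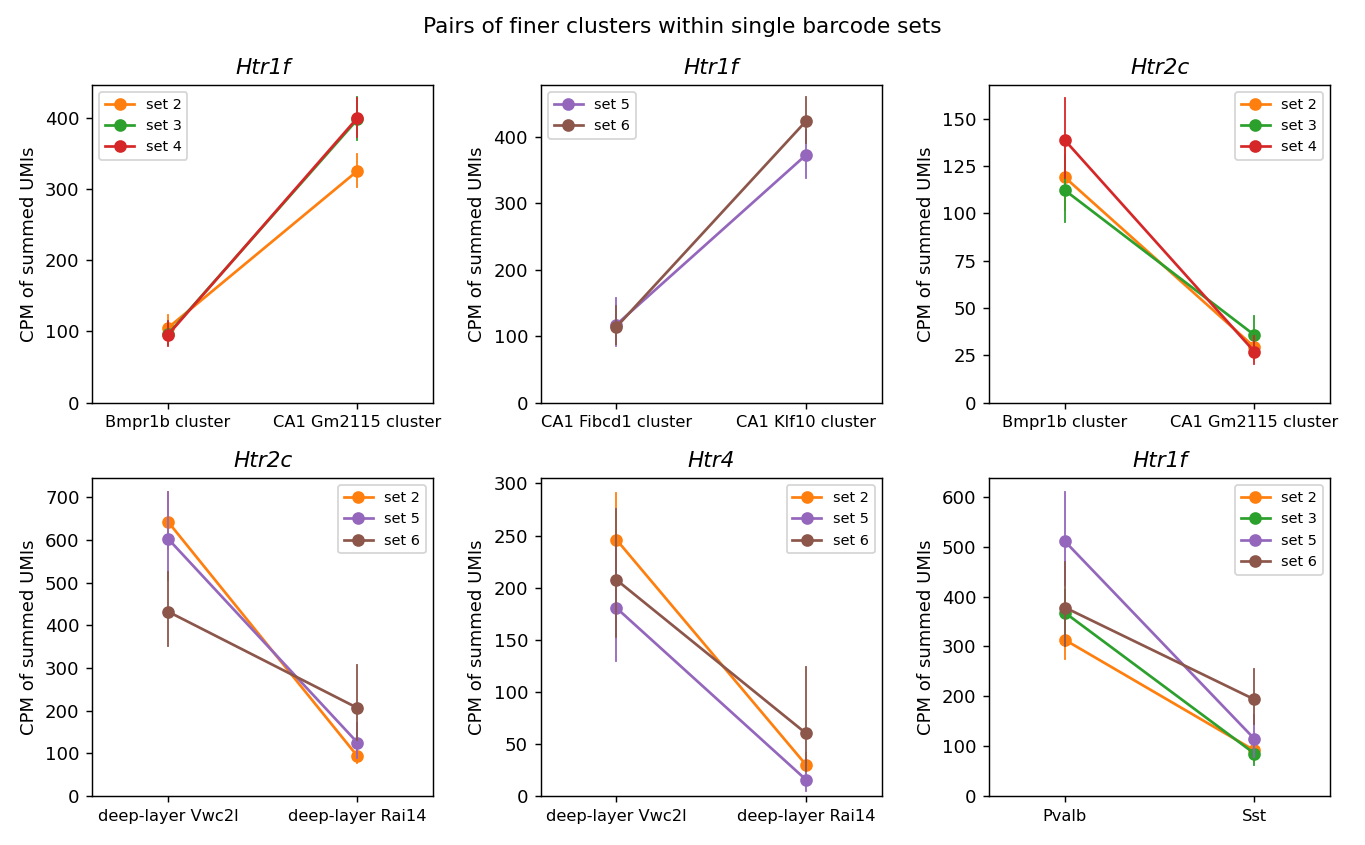
Receptor levels (CPM) in pairs of finer clusters, with points joined within a barcode set and the first cluster of each pair on the left; vertical bars are exact 95% counting intervals. Htr1f is higher in Pvalb than in Sst interneurons in 4 of 4 sets, and Htr2c is higher in the Vwc2l than in the Rai14 deep-layer cluster in 3 of 3 sets.

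Nuclei of CA3 were also compared by whether they held a Htr4 UMI, a class chosen after its values were seen. Nuclei with a Htr4 UMI (361) had 59.1 CPM of Htr2c, against 12.9 CPM in the 476 nuclei without one, a ratio of 4.60 (3.45 to 6.23). Htr7 was at 40.3 CPM in nuclei with Htr4 and 14.3 CPM in those without, a ratio of 2.82 (2.12 to 3.81). Both were higher in 6 of 6 barcode sets, and the interval was above 1 in 5 sets for Htr2c and in 3 sets for Htr7. Htr1f was at 256 CPM with Htr4 and 232 CPM without, a ratio of 1.11 (1.02 to 1.20), and Htr2a was at 9.59 CPM with and 12.9 CPM without. The Htr2c difference was not shared by all classes: Htr2c was at 36.5 CPM with Htr4 and 58.6 CPM without in CA1, and at 155 CPM with and 216 CPM without in the Pdzrn3/Npsr1 class, while in deep-layer neurons it was at 686 CPM with and 116 CPM without. Nuclei with Htr4 were deeper, with a median of 15826 UMIs, against 4795.5 without. The part of depth, of CA3 nuclei that resemble the Col6a1/Vgll3 class, and of the 98 nuclei named CA2 at the finer clustering, was not tested. In Vip or Cck interneurons, Htr7 was found in 32.3% of the 65 nuclei with Htr3a (89.3 CPM), against 15.7% of those without (45.5 CPM), at median depths of 7649 and 3508 UMIs.

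**Figure D5:**
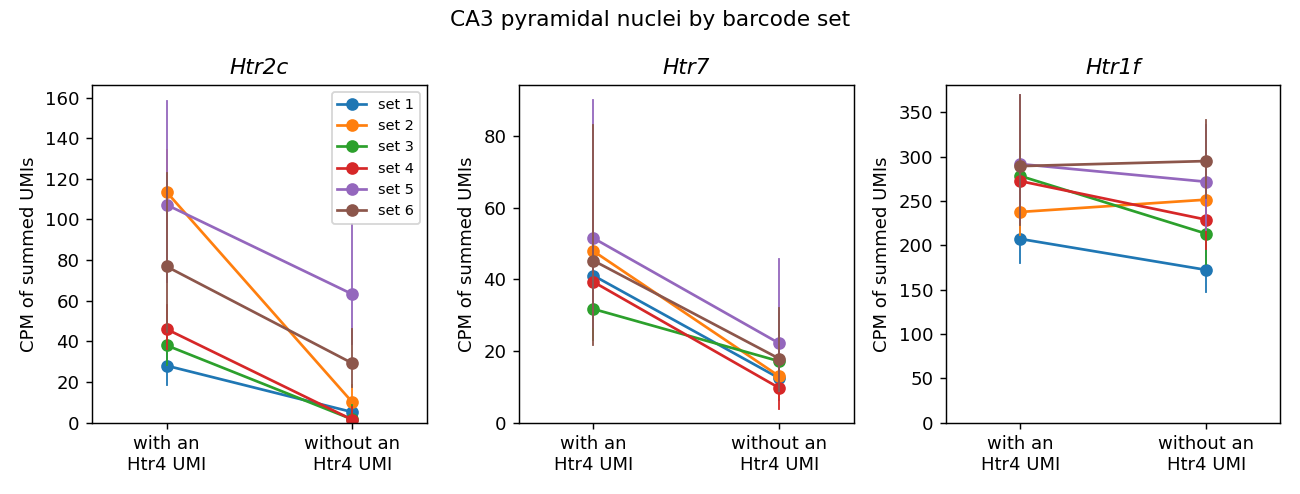
CPM of Htr2c, Htr7 and Htr1f in CA3 nuclei with and without a Htr4 UMI, with points joined within a barcode set and vertical bars for exact 95% counting intervals. Htr2c and Htr7 are higher in nuclei with Htr4 in 6 of 6 sets, while Htr1f is higher in 4 of 6.

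The other 6 serotonin receptor genes were mostly sparse, and 4 of them could be compared. Of these, 3 exceeded 2-fold in neurons over non-neuronal nuclei, against 18.5% of all genes. They were Htr1b, Htr5a and Htr6, which rest on 4, 3 and 2 non-neuronal UMIs. Htr1b, a presynaptic Gi/o-coupled receptor, was highest in Zic1 or Meis2 neurons at 30.4 CPM. Htr6, a Gs-coupled receptor, was higher in excitatory than in inhibitory neurons by a ratio of 2.27 (1.26 to 4.50). Htr2b did not divide the sides, with 34.8 CPM in neurons and 34.1 CPM in non-neuronal nuclei. Htr3b, a partner subunit of the channel, gave 14 UMIs in all, and 8 of them were in Vip or Cck interneurons (3.62 CPM), the class in which Htr3a was high.

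Of 12 genes for making, moving and degrading serotonin, 9 had enough counts, of which 2 were higher by 2-fold or more in neurons and 2 lower, which is near the 18.5% and 21.6% of all genes. Slc29a4, a monoamine transporter, was higher in neurons than in non-neuronal nuclei by a ratio of 4.17 and in excitatory than in inhibitory neurons by 5.64. Aanat, an enzyme of melatonin synthesis, was higher in neurons, with 1 non-neuronal UMI. Ddc, which makes serotonin and dopamine from their precursors, was at 1.83 CPM in neurons and 56.2 CPM in non-neuronal nuclei. Maob, which breaks monoamines down, had a neuronal ratio of 0.239. Of 14 genes that act with the receptors, 7 had neuronal levels higher by 2-fold or more and 2 lower, against 18.5% and 21.6% of all genes. They were Kcnj3, Kcnj6 and Kcnj9, the potassium channel subunits opened by Gi/o-coupled receptors (ratios 7.72, 10.2 and 5.61), the editing enzymes Adarb1 and Adar (4.33 and 2.50), the scaffold Dlg4 (3.95) and the phospholipase Plcb1 (3.11). S100a10 and the G protein Gnai1 were lower in neurons, with ratios of 0.467 and 0.402. Between the neuronal sides, Kcnj6 and Kcnj9 were higher in excitatory neurons (2.31 and 2.26) and Gnas, the Gs subunit, was lower (0.474).

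Across the 19 classes, the pair of receptor genes with the most similar profile was Htr7 and Htr2c, with a Pearson r of 0.67. Over genes with at least 500 UMIs, the profile of Htr4 was most like that of Dnajb5 (r = 0.88), that of Htr7 like Unc5d (0.85), that of Htr1f like Neto2 (0.82) and that of Htr2c like Tmem130 (0.82). Htr2a was closest to Galntl6 (0.82), Htr3a to Adgrg6 (0.82) and Htr1a to Minar2 (0.72). These are descriptions over classes that share libraries and differ in depth.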

How the data were processed

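The deposited file is a matrix of raw UMI counts per gene and barcode, made by the authors with Cell Ranger 4.0.0, per the submitters' processing notes, which name the builds mm10 and GRCm38. No source used here gives the annotation release or whether intronic reads were counted. Barcodes were kept (15553) where they held 500 UMIs or more and 300 genes or more, with mitochondrial UMIs under 5%. Scrublet calls (211 doublets) were left out, but they marked under 0.5% of nuclei in 4 of 7 sets, so doublets may remain in those sets. Nuclei were clustered with scanpy 1.11.5 and leidenalg 0.10.2 on 2068 features, without the receptor and list genes, at resolution 1 (32 clusters) and, for finer clusters, 2 (40 clusters). Clusters were named from marker lists, and the naming rule was built while looking at the clusters. The members and lists were chosen with earlier results of these data known.

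Summed counts were turned into CPM with exact Poisson intervals, ratios have exact intervals for 2 Poisson counts, and shares have Clopper-Pearson intervals, all at 95% (scipy 1.17.1). A comparison used genes with at least 100 UMIs, and 2-fold was the size that counted. Classes needed 50 nuclei, and the same minimum held within sets. A level of 0 was bounded by 3 UMIs. Neighbours in an order were called separable where the interval of their ratio left out 1. All 8 receptor genes were named, then the lists, and by Pearson r on log2(CPM + 5) over classes the genes most like each member, which are not reported here for Htr5b. Ratios were tested on simulated data. Gene positions are from GENCODE on GRCm38. The alternatives covered doublets, depth, scaling, sets, unnamed clusters and resolution.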

Additional observations from a re-analysis of the deposited data

Results flagged for a closer look

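Htr2c reached 628 CPM (607 to 648) in a cluster that no comparison used, because it carried under 3 raised markers of any named type. The cluster is called by its leading genes Ebf1 and Baiap3. It drew attention because this level was above the 458 CPM of Zic1 or Meis2 inhibitory neurons, the highest of the named classes, and above the 9.74 CPM of oligodendrocytes. Of its 738 nuclei, 379 (51.4%) had a Htr2c UMI, and 670 came from barcode set 1. Htr7 was at 86.1 CPM there, Htr4 at 105 CPM and Htr1f at 82.4 CPM, each below the highest named class of its gene. The part of set 1 in this value was not tested. Put in the class its markers came closest to, this cluster joined the inhibitory neurons, and the log2 ratio of Htr2c between excitatory and inhibitory neurons was then -1.92, against -1.25 without it.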

How the results depend on the processing

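No ratio between neurons and non-neuronal nuclei or between excitatory and inhibitory neurons changed sign under the alternatives run, except that of Htr1a, which was within 2-fold at a log2 ratio of 0.56 in excitatory over inhibitory neurons and was -0.23 with thinned nuclei. The number of receptor genes at least 2-fold higher in neurons was 7, was 8 under 7 alternatives (doublets kept, at least 1000 UMIs, no scaling, thinned nuclei, unnamed clusters placed in their best class, without set 1, and without the highest 5% of doublet scores, the last chosen after seeing the data), and was 5 as the median over sets. The 5 leaves out Htr5b and Htr3a, for which some set ratios are only lower bounds. The number at least 2-fold higher in excitatory neurons was 2 in each alternative. The number at least 2-fold lower was 3, and 4 with thinned nuclei or without the highest 5% of doublet scores, where Htr2a crossed the line. Without set 1 and as the median over sets it was also 3, but with Htr2a (log2 ratios of -1.15 and -1.14) past the line and Htr2c (-0.84 and -0.73) short of it. With no scaling, 6 of the 8 neuronal ratios moved beyond their interval, since neurons hold more UMIs. The highest class of a gene changed under at least 1 alternative for Htr1a, Htr1f, Htr2a, Htr2c, Htr4 and Htr7. Depth limits Htr1a, Htr3a and Htr5b most. Samples cannot be told apart in the matrix, so variation between mice was not measured. No paired analysis was possible because the barcodes carry no sample and there is 1 group.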

Other observations

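Values in other unnamed clusters belong to no comparison. A cluster led by Fbxw15 and Slc13a1 (205 nuclei), which carried raised oligodendrocyte markers beside excitatory ones, had 272 CPM of Htr4 and 72.1 CPM of Htr1f. A cluster led by the microglial genes Inpp5d and Siglech (443 nuclei, median 5432 UMIs) had 137 CPM of Htr4, seen in 29.8% of nuclei, and 85.3 CPM of Htr1f. A cluster of 18 nuclei, all from set 2 and led by Syt9 and Nwd2, had 48.1 CPM of Htr5b (17.7 to 105) from 6 UMIs, above the 13.1 CPM of CA1. The part of droplets that held more than 1 nucleus in these values was not tested.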
